A study of Mus musculus with 4 samples.

Results

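The 9 genes described here encode the necroptosis and caspase-8 machinery: the adaptors Tradd and Fadd, the kinases Ripk1 and Ripk3, the protease Casp8 and its partner Cflar, the deubiquitinase Cyld, the nucleic-acid sensor Zbp1 and the pore-forming executioner Mlkl. They were chosen by name as known effectors of death signalling downstream of TNF and TRIF, and each was found among the 32285 features of the deposited count tables, so 9 of 9 were read. Their RNA was followed in spleen cells of 4 single-cell libraries from mice aged 10 weeks, collected 4 h after an intravenous injection of 100 µl. The libraries were labelled TRIF-KO with 9 µg recombinant mouse TNF, wild-type with the same TNF dose, TRIF-KO with PBS, and wild-type with PBS, 1 library each. All mice had the C57BL/6 background, the spleens went through red-cell lysis and removal of dead cells on magnetic beads, and the number of mice behind a library is not stated in the labels. Because each group was 1 library, no difference could be tested. Every interval given in brackets is a 95% interval that covers counting error only and takes no account of differences between mice.

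Binding of TNF to its receptor assembles a complex in which TRADD and the kinase RIPK1 are held by ubiquitin chains. CYLD trims these chains. A later complex of FADD, caspase-8 and cFLIP, the product of Cflar, can lead to apoptosis, or, when caspase-8 is inactive, RIPK1 can engage RIPK3, which phosphorylates MLKL and opens the plasma membrane in the process called necroptosis. TRIF, the adaptor of Toll-like receptors 3 and 4 that is encoded by Ticam1, and ZBP1 reach RIPK3 through the same interaction motif as RIPK1, and cFLIP bound to caspase-8 holds both routes in check. Protein levels, cleavage and phosphorylation, on which these steps turn, were not measured here.

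The genes lie on 6 chromosomes of the mouse build GRCm38, in the GENCODE M21 annotation. Cflar (chromosome 1, 58711508 to 58758884) and Casp8 (chromosome 1, 58795374 to 58847503) are neighbours on the plus strand with 36489 bases between them. Cyld (88697028 to 88751945, plus strand), Tradd (105258286 to 105264609, minus strand) and Mlkl (111311797 to 111338177, minus strand) are all on chromosome 8. The others are Ripk1 (chromosome 13, 34002363 to 34037147, plus), Ripk3 (chromosome 14, 55784995 to 55788865, minus), Zbp1 (chromosome 2, 173206612 to 173218923, minus) and Fadd (chromosome 7, 144577318 to 144582463, minus). Exons of Ripk1 overlap those of Gm17084 on the same strand and of Serpinb6a on the other, and Fadd overlaps Faddos on the other strand, so some of the reads counted for Ripk1 and Fadd could belong to these neighbours.

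Of the 9 genes, 7 matched RefSeq promoter entries of GRCm38.p6, which hold 250 bases before and 50 after a start site, and Ripk1 matched 2. These windows were searched on both strands for GGGANTTTC, a spelling of the site bound by NF-kB, and for GAAANNGAA, a spelling of the element bound by interferon-stimulated factors. The first was in 1 of the 8 windows of these genes, that of Cyld, and in 365 of 32851 promoters (1.11%). The second was in 4 of the 8, those of Cflar, Cyld, Ripk3 and the second Ripk1 entry, and in 2812 promoters (8.56%). The 4 windows with a match are printed below, 5′ to 3′ on the strand of the gene with the matches in capitals, as the start regions of these genes that hold either spelling. A match describes the letters only and no binding was measured. Cflar is shown at chr1:58711241-58711540 (plus strand), Cyld at chr8:88696778-88697077 (plus strand), Ripk1 at chr13:34002624-34002923 (plus strand) and Ripk3 at chr14:55788808-55789107 (minus strand). In Cyld the first run of capitals is the GAAANNGAA match and the second the GGGANTTTC match, both read on the opposite strand, and in Cflar the match is also on the opposite strand.
Cflar: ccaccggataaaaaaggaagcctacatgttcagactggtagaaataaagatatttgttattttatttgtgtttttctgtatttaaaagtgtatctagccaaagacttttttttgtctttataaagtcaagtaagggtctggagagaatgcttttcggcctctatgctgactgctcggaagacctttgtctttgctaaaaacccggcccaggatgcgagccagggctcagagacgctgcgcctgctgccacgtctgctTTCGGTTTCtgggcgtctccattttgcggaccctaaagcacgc
Cyld: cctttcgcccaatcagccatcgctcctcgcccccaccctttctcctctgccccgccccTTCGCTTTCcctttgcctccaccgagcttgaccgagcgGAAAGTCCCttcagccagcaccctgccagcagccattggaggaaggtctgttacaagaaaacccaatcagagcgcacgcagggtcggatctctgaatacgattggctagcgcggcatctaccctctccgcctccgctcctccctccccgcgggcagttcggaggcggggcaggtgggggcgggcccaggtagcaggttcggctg
Ripk1: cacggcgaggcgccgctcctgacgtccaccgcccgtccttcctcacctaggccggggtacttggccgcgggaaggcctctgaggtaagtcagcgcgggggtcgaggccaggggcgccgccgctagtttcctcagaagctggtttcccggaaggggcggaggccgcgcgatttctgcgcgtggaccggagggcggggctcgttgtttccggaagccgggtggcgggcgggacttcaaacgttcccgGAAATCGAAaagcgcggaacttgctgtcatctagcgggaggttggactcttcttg
Ripk3: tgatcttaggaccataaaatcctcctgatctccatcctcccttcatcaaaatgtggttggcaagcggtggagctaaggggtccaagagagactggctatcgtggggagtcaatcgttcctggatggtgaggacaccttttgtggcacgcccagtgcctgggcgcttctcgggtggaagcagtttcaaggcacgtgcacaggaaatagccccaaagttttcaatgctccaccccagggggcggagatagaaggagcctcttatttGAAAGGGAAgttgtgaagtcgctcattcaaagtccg

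After filtering, 6606 cells remained with TRIF-KO TNF, 4966 with wild-type TNF, 5364 with TRIF-KO PBS and 2448 with wild-type PBS. They held 58983224, 29941602, 29408091 and 22395169 UMIs in that order of groups, where a UMI (unique molecular identifier) counts 1 captured RNA molecule, and medians of 7182, 4665.5, 4405 and 6872 UMIs per cell. Library pairs shared 1 to 10 cell barcodes. The wild-type TNF library had the highest share of barcodes over the mitochondrial limit, 22.4%, against 6.26 to 11.6% in the other libraries. Ticam1 RNA was present in the libraries labelled TRIF-KO at 5.71 CPM with TNF and 8.43 CPM with PBS, and in wild-type at 3.77 CPM with TNF and 6.88 CPM with PBS. UMIs that may lie outside a deleted or mutated part check nothing, so TRIF-KO below is the label of the library. CPM are UMIs per 1000000 UMIs of a class in a library.

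Cells were grouped by clusters into 8 classes with at least 50 cells in each library, and each class had every marker of its own list detected in every library. The dendritic-like class carried these markers weakly: their summed level was 462 CPM with TRIF-KO TNF and 455 CPM with wild-type TNF, against 1279 CPM with TRIF-KO PBS and 1573 CPM with wild-type PBS. None of the 8 dendritic markers was among the 10 leading genes of its clusters 17 (Fabp5, Tbc1d4, Fscn1) and 18 (Cst3, Apol7c, Naaa), and neutrophil marker UMIs in it summed to 368, 1225, 114 and 5284 CPM in the 4 libraries in that order. Neutrophil-like cells of the TNF libraries all lay in cluster 12, led by the granule genes Ngp, Camp and Lcn2 (350 cells with TRIF-KO TNF and 82 with wild-type TNF). Those of the PBS libraries lay almost wholly in cluster 19, led by Csf3r and Cxcr2 (95 cells with TRIF-KO PBS and 161 with wild-type PBS), with 4 and 5 in cluster 12. Monocyte-like cells were split in nearly the same way, into cluster 22 (88 cells with TRIF-KO TNF and 55 with wild-type TNF) and cluster 21 (111 cells with TRIF-KO PBS and 81 with wild-type PBS). In these classes a difference within cells of one kind and a difference in which cells were recovered cannot be told apart. Macrophage-like cells were shallow, with medians of 844 to 1221.5 UMIs.

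Together the 9 genes and 8 classes gave 72 pairs, of which 39 had at least 100 UMIs over the 4 libraries and are called measured. With TNF, at least 2-fold higher CPM was found for 6 of the 39 measured pairs in TRIF-KO and for 8 in wild-type, and none of the 39 was at least 2-fold lower in either. Over all measured genes of these classes, 4.60% were at least 2-fold higher and 5.52% lower in TRIF-KO, and 5.07% higher and 10.7% lower in wild-type. Zbp1 in lymphocytes and Cflar in myeloid cells made up 7 of the 8 pairs in wild-type, the other being Cyld in neutrophil-like cells. In TRIF-KO they made up 3 of the 6, beside Zbp1 and Casp8 in neutrophil-like cells and Zbp1 in dendritic-like cells. In these 8 classes the kinases and adaptors stayed within 2-fold with TNF wherever they were measured. The unmeasured pairs are those of Mlkl in all 8 classes, of Fadd in 6, of Ripk3 and Tradd in 5 each, of Ripk1 in 3, of Casp8 and Zbp1 in 2 each, and of Cflar and Cyld in 1 each.

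**Figure D1:**
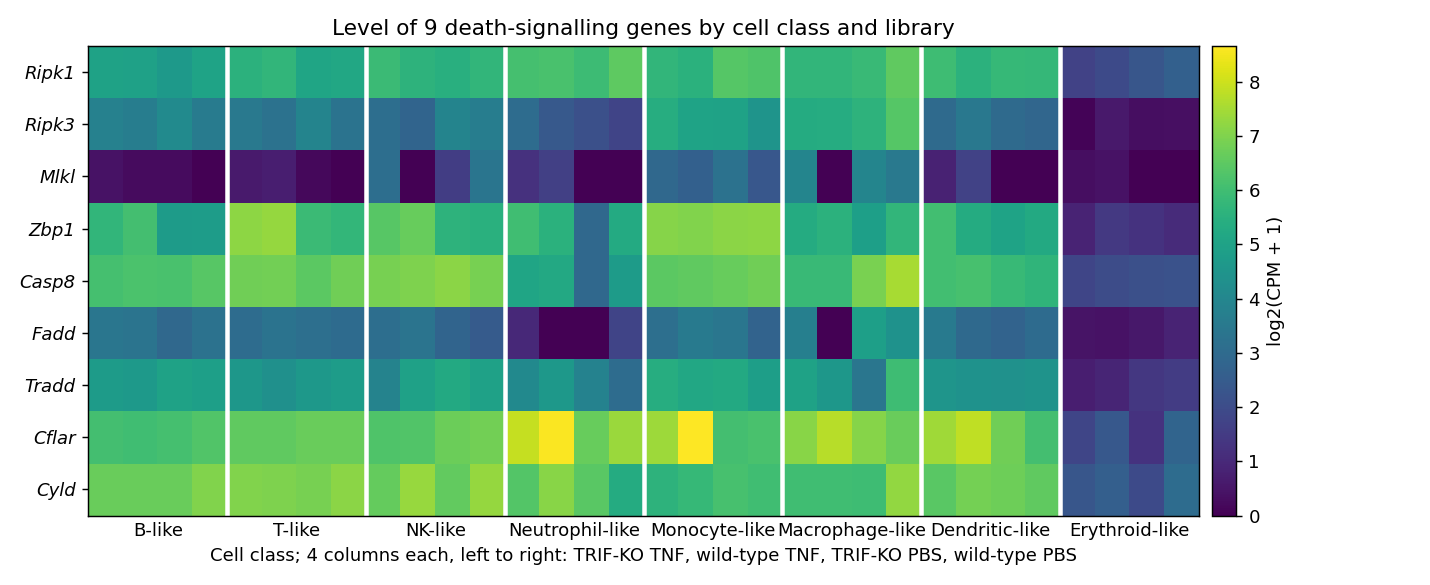
Heat map of the level of each of the 9 genes (rows) in 8 cell classes, as log2(CPM + 1). Each class has 4 columns, left to right TRIF-KO TNF, wild-type TNF, TRIF-KO PBS and wild-type PBS. Mlkl is dark nearly everywhere, all genes are low in erythroid-like cells, and the brightest cells are Cflar with wild-type TNF in neutrophil-like (388 CPM) and monocyte-like (403 CPM) cells.

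Tradd, the adaptor that docks on the TNF receptor, was measured in monocyte-like, B-like and T-like cells, where it stayed within 2-fold with TNF. In monocyte-like cells it stood at 41.3 CPM with TRIF-KO TNF and 35.2 CPM with wild-type TNF, against 37.2 CPM with TRIF-KO PBS and 28.0 CPM with wild-type PBS. B-like cells held 25.7 and 24.6 CPM with TNF in TRIF-KO and wild-type, against 30.6 and 28.7 CPM with PBS. The log2 ratio of TNF to PBS there was -0.25 (-0.47 to -0.03) in TRIF-KO and -0.22 (-0.50 to 0.06) in wild-type, both close to no change. In T-like cells it was -0.03 (-0.32 to 0.26) in TRIF-KO and -0.47 (-0.86 to -0.07) in wild-type, where the median of all genes stood at -0.17. Tradd was highest in monocyte-like cells by its median over the 4 libraries (36.2 CPM), and lowest among white cells in neutrophil-like cells (14.7 CPM). The classes with under 100 UMIs varied more between libraries. NK-like cells had 7 UMIs (13.7 CPM) with TRIF-KO TNF and 10 UMIs (29.9 CPM) with wild-type TNF, against 19 UMIs (37.7 CPM) with TRIF-KO PBS and 13 UMIs (30.2 CPM) with wild-type PBS. Neutrophil-like cells had 48 UMIs (16.1 CPM) with TRIF-KO TNF and 11 UMIs (23.6 CPM) with wild-type TNF, against 4 UMIs (13.2 CPM) with TRIF-KO PBS and 6 UMIs (7.35 CPM) with wild-type PBS.

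Fadd, the adaptor that brings caspase-8 to death receptors, was sparse. All kept cells held 6.14 CPM with TRIF-KO TNF, 6.81 CPM with wild-type TNF, 6.90 CPM with TRIF-KO PBS and 6.52 CPM with wild-type PBS. B-like cells, 1 of the 2 classes in which it was measured, held 9.44 and 8.96 CPM with TNF in TRIF-KO and wild-type, against 6.61 and 8.68 CPM with PBS. Their log2 ratio was 0.51 (0.09 to 0.96) in TRIF-KO and 0.05 (-0.45 to 0.55) in wild-type, and the difference between these, 0.47 (-0.17 to 1.10), included 0. T-like cells held 7.44 and 8.75 CPM with TNF, against 7.92 and 7.12 CPM with PBS, with no order by treatment. Neutrophil-like cells had 0 UMIs of Fadd with wild-type TNF and with TRIF-KO PBS, which allows up to 6.43 and 9.91 CPM.

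Ripk1, the kinase shared by the survival, apoptotic and necroptotic routes, differed with TNF in opposite directions in T-like and monocyte-like cells. In T-like cells it stood at 46.7 CPM with TRIF-KO TNF and 51.3 CPM with wild-type TNF, against 32.8 CPM with TRIF-KO PBS and 35.6 CPM with wild-type PBS. Both TNF libraries were thus above both PBS libraries, with log2 ratios of 0.51 (0.29 to 0.74) in TRIF-KO and 0.53 (0.23 to 0.83) in wild-type. Monocyte-like cells held 51.2 and 45.7 CPM with TNF in TRIF-KO and wild-type, against 81.1 and 76.7 CPM with PBS. There both TNF libraries were below both PBS libraries, with log2 ratios of -0.66 (-1.13 to -0.20) in TRIF-KO and -0.75 (-1.43 to -0.11) in wild-type. Each of these ratios was within 2-fold, and TRIF-KO minus wild-type was -0.01 (-0.38 to 0.35) in T-like and 0.06 (-0.70 to 0.83) in monocyte-like cells. In B-like cells Ripk1 ranged over 24.9 to 31.3 CPM, with the TRIF-KO PBS library lowest, and the log2 ratio of TNF to PBS was 0.30 (0.07 to 0.52) in TRIF-KO and -0.06 in wild-type. Neutrophil-like cells had the highest median, 69.2 CPM (59.5 to 90.7 over the libraries), and did not separate by treatment. The medians of monocyte-like, macrophage-like, dendritic-like and NK-like cells followed at 49.5 to 64 CPM, within the spread of their libraries.

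Casp8, the protease at the fork between apoptosis and necroptosis, was steady in lymphocytes and low in neutrophil-like cells. NK-like cells held 117 CPM with TRIF-KO TNF and 126 CPM with wild-type TNF, against 143 CPM with TRIF-KO PBS and 116 CPM with wild-type PBS. In T-like cells the values were 108 and 112 CPM with TNF in TRIF-KO and wild-type, against 89.0 and 108 CPM with PBS, and in B-like cells 67.4 and 72.9 CPM with TNF, against 71.2 and 83.1 CPM with PBS. T-like cells of the TRIF-KO PBS library were the low value, which gave a log2 ratio of TNF to PBS of 0.28 (0.14 to 0.42) in TRIF-KO and 0.05 (-0.13 to 0.23) in wild-type. Monocyte-like cells held 87.8 and 93.2 CPM with TNF, against 100 and 108 CPM with PBS. The ratios there, -0.19 (-0.57 to 0.19) in TRIF-KO and -0.21 (-0.70 to 0.26) in wild-type, were not separable from no change at this depth.

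In neutrophil-like cells Casp8 had 99 UMIs (33.3 CPM) with TRIF-KO TNF and 17 UMIs (36.4 CPM) with wild-type TNF, against 2 UMIs (6.61 CPM) with TRIF-KO PBS and 21 UMIs (25.7 CPM) with wild-type PBS. The log2 ratio of 2.33 (0.44 to 5.40) in TRIF-KO thus rests on a PBS library with 2 UMIs in 99 cells, whose median depth was 2545 UMIs. In wild-type the ratio was 0.50 (-0.51 to 1.49). Macrophage-like cells, where Casp8 was below the 100 UMIs required, had 28 and 10 UMIs with TNF (57.2 CPM in both genotypes), against 25 UMIs (120 CPM) with TRIF-KO PBS and 18 UMIs (184 CPM) with wild-type PBS. Both TNF libraries were lower there, on few UMIs. The median over libraries put NK-like, T-like and monocyte-like cells highest for Casp8 (122, 108 and 96.6 CPM) and neutrophil-like cells lowest among white cells (29.5 CPM).

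**Figure D2:**
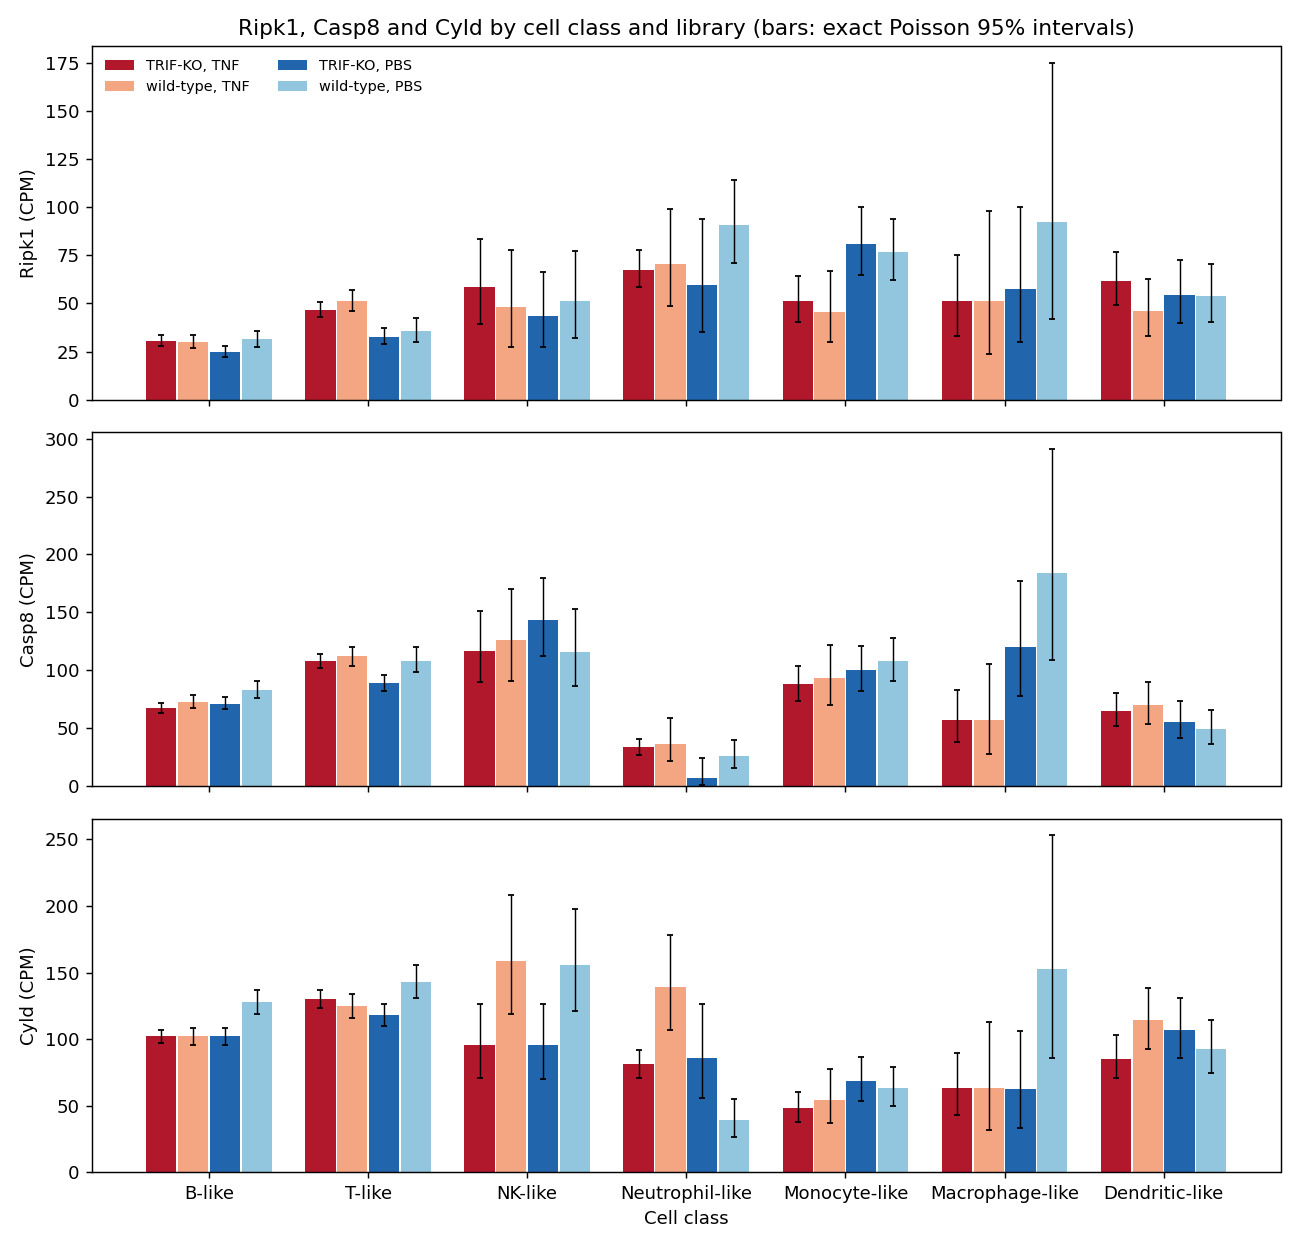
Bars give the CPM of Ripk1, Casp8 and Cyld in 7 cell classes for TRIF-KO TNF, wild-type TNF, TRIF-KO PBS and wild-type PBS, left to right, with exact Poisson 95% intervals. Ripk1 is higher with TNF in T-like cells and lower in monocyte-like cells in both genotypes, and Cyld in neutrophil-like cells is 139 CPM with wild-type TNF and 39.2 CPM with wild-type PBS.

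Cflar encodes cFLIP, the catalytically inactive relative of caspase-8 that restrains both apoptosis and necroptosis. Its RNA was higher with TNF in each myeloid class of wild-type and in most of TRIF-KO, and level or somewhat lower in lymphocytes. Monocyte-like cells held 166 CPM with TRIF-KO TNF (250 UMIs) and 403 CPM with wild-type TNF (229 UMIs), against 65.8 CPM with TRIF-KO PBS (69 UMIs) and 71.7 CPM with wild-type PBS (87 UMIs). Both TNF libraries were above both PBS libraries, and wild-type TNF stood far above all others. The log2 ratio of TNF to PBS was 1.34 (0.95 to 1.74) in TRIF-KO and 2.49 (2.13 to 2.86) in wild-type. With TNF the TRIF-KO library was lower than wild-type by a log2 ratio of -1.27 (-1.54 to -1.01), while with PBS the ratio was -0.12 (-0.60 to 0.35). The response in TRIF-KO minus that in wild-type was -1.15 (-1.68 to -0.63), compared with medians over all genes of -0.01 in TRIF-KO and -0.23 in wild-type for the 2 responses.

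No single cell made up the difference, since the cell with most Cflar UMIs held 10 of the 250 with TRIF-KO TNF and 12 of the 229 with wild-type TNF. Macrophage markers moved with it: their 9 genes summed to 1718 CPM with TRIF-KO TNF and 2633 CPM with wild-type TNF, against 281 CPM with TRIF-KO PBS and 126 CPM with wild-type PBS, with C1qa at 0 in the last. Without cells holding a UMI of C1qa, C1qb or C1qc, a choice made after seeing the data, Cflar stood at 170 CPM with TRIF-KO TNF and 399 CPM with wild-type TNF, against 63.7 CPM with TRIF-KO PBS and 76.7 CPM with wild-type PBS. The ratio between the genotypes with TNF was -1.23 there, beside -1.27 in the whole class. Cells without a C1q UMI can still hold the other macrophage markers, and the part of these markers in the result was not tested. Erythroid markers in monocyte-like cells summed to 9681 CPM with TRIF-KO TNF and 1243 CPM with wild-type TNF, against 834 CPM with TRIF-KO PBS and 1382 CPM with wild-type PBS, and their part in the result was not tested.

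Neutrophil-like cells held 236 CPM of Cflar with TRIF-KO TNF (702 UMIs) and 388 CPM with wild-type TNF (181 UMIs), against 99.1 CPM with TRIF-KO PBS (30 UMIs) and 162 CPM with wild-type PBS (132 UMIs). The order was TNF above PBS within each genotype and TRIF-KO below wild-type within each treatment. The 2 responses were nearly equal, with log2 ratios of 1.25 (0.73 to 1.83) in TRIF-KO and 1.26 (0.93 to 1.60) in wild-type and a difference of -0.03 (-0.65 to 0.58). TRIF-KO to wild-type stood at -0.72 (-0.95 to -0.47) with TNF and -0.71 (-1.33 to -0.13) with PBS. In this class the median of all genes was -0.34 in TRIF-KO and -0.30 in wild-type, so Cflar went against the general direction.

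Dendritic-like cells held 170 CPM of Cflar with TRIF-KO TNF and 224 CPM with wild-type TNF, against 108 CPM with TRIF-KO PBS and 66.0 CPM with wild-type PBS. Both TNF libraries were again the higher ones. The log2 ratio was 0.66 (0.30 to 1.02) in TRIF-KO and 1.76 (1.35 to 2.19) in wild-type, and their difference -1.10 (-1.63 to -0.57). The wild-type PBS library, on which the wild-type ratio rests, held 67 dendritic-like cells with a median of 12828 UMIs. The medians were 3182.5 UMIs with TRIF-KO TNF, 2777 with wild-type TNF and 2740 with TRIF-KO PBS. What part this had in the ratios was not tested. Without doublet removal the wild-type ratio was 1.20. With TNF the genotypes differed less than with PBS, where TRIF-KO was the higher one (0.71, 0.23 to 1.19). The direction held in each of the 2 clusters, with 0.36 in TRIF-KO and 1.22 in wild-type in cluster 17 and 1.97 and 2.84 in cluster 18, which had 25 cells with wild-type PBS. Without cells that held 5 or more UMIs of the neutrophil markers or over 1% haemoglobin UMIs, again a choice made after seeing the data, the ratios were 0.30 in TRIF-KO and 1.52 in wild-type. In macrophage-like cells Cflar had 67 UMIs (137 CPM) with TRIF-KO TNF and 37 UMIs (212 CPM) with wild-type TNF, against 28 UMIs (134 CPM) with TRIF-KO PBS and 10 UMIs (102 CPM) with wild-type PBS. The wild-type log2 ratio of 1.05 (0.01 to 2.22) was 0.85 without the cell with most UMIs in each library, and in TRIF-KO the ratio was 0.03 (-0.63 to 0.72).

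Lymphocytes had no such difference in Cflar. T-like cells held 93.2 and 93.4 CPM with TNF in TRIF-KO and wild-type, against 102 CPM in both PBS libraries. B-like cells held 66.2 and 62.9 CPM with TNF, against 67.4 and 78.0 CPM with PBS, and NK-like cells 76.1 and 77.9 CPM with TNF, against 105 and 111 CPM with PBS. The TNF libraries were at or below the PBS libraries in each of these classes, with log2 ratios of -0.52 to -0.02. Only the ratio of B-like cells in wild-type, -0.31 (-0.48 to -0.14), had an interval that excluded 0, beside a median of -0.17 over all genes. After thinning every cell to 1000 UMIs, the share of monocyte-like cells with a Cflar UMI was 22.5% with TRIF-KO TNF and 36.4% with wild-type TNF, against 7.21% with TRIF-KO PBS and 7.41% with wild-type PBS. Erythroid-like cells, which should hold little of this RNA and had medians of 11394 to 15806 UMIs, showed thinned shares of 0.270 to 0.596%. Their own erythroid markers summed to 592091 to 659864 CPM over the libraries, which leaves fewer of the 1000 UMIs for any other RNA. Their shares therefore cannot serve as a measure of background in monocyte-like cells, and that background was not tested. Unthinned, the monocyte-like shares were 85.4% with TRIF-KO TNF and 90.9% with wild-type TNF, against 39.6% with TRIF-KO PBS and 55.6% with wild-type PBS, at median depths of 15447, 10926, 9355 and 14783 UMIs in that order, and the erythroid-like shares were 1.58 to 6.75%. In neutrophil-like cells the thinned shares were 23.6% with TRIF-KO TNF and 31.2% with wild-type TNF, against 12.2% with TRIF-KO PBS and 16.3% with wild-type PBS.

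**Figure D3:**
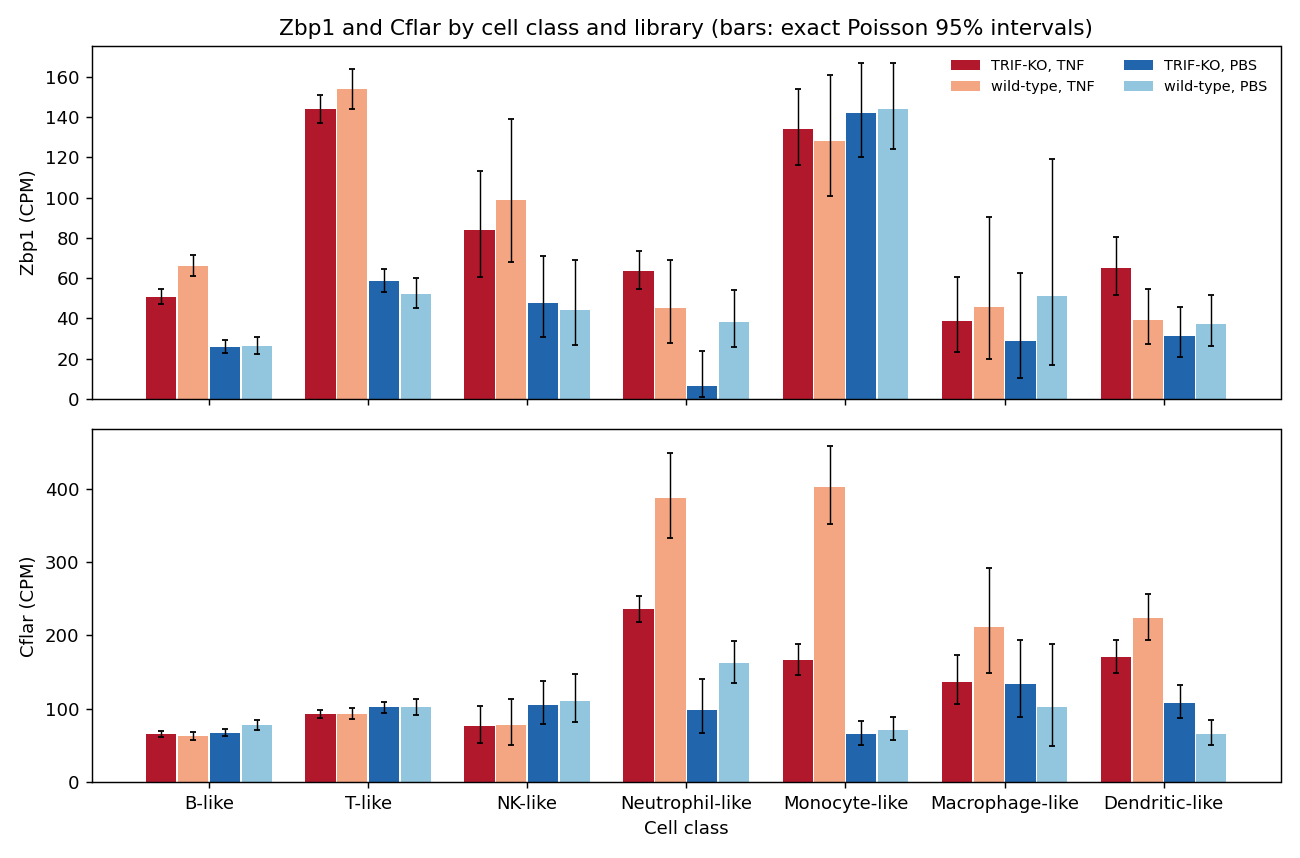
Bars give the CPM of Zbp1 (top) and Cflar (bottom) in 7 cell classes for TRIF-KO TNF, wild-type TNF, TRIF-KO PBS and wild-type PBS, left to right, with exact Poisson 95% intervals. Zbp1 is higher with TNF in B-like, T-like and NK-like cells, and Cflar in neutrophil-like, monocyte-like and dendritic-like cells.

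Cyld encodes the deubiquitinase whose loss stabilises the TNF receptor complex and which is itself cleaved by caspase-8. In B-like cells its RNA was 102 CPM in 3 libraries, TRIF-KO TNF, wild-type TNF and TRIF-KO PBS, against 128 CPM with wild-type PBS. T-like cells held 130 CPM with TRIF-KO TNF and 125 CPM with wild-type TNF, against 118 CPM with TRIF-KO PBS and 143 CPM with wild-type PBS. In both classes the wild-type PBS library was the highest. NK-like cells separated by genotype and not by treatment, with 95.7 CPM with TRIF-KO TNF and 159 CPM with wild-type TNF, and 95.2 CPM with TRIF-KO PBS and 156 CPM with wild-type PBS. The log2 ratio of TRIF-KO to wild-type there was -0.73 (-1.32 to -0.14) with TNF and -0.71 (-1.27 to -0.15) with PBS, within 2-fold in both.

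The widest spread of Cyld was in neutrophil-like cells, where it stood at 81.0 CPM with TRIF-KO TNF (241 UMIs) and 139 CPM with wild-type TNF (65 UMIs), against 85.9 CPM with TRIF-KO PBS (26 UMIs) and 39.2 CPM with wild-type PBS (32 UMIs). The 2 TRIF-KO libraries lay between the wild-type ones. The log2 ratio of TNF to PBS was -0.08 (-0.67 to 0.56) in TRIF-KO and 1.83 (1.20 to 2.49) in wild-type, a difference of -1.93 (-2.76 to -1.09). TRIF-KO was lower than wild-type with TNF (-0.78, -1.18 to -0.36) and higher with PBS (1.13, 0.33 to 1.92). The thinned share of cells with a UMI was 9.80% with TRIF-KO TNF and 10.0% with wild-type TNF, against 11.2% with TRIF-KO PBS and 3.01% with wild-type PBS, so in this measure only wild-type PBS stood apart. Monocyte-like cells (47.9 to 68.7 CPM) and dendritic-like cells (85.4 to 114 CPM) stayed within 2-fold in every comparison.

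Zbp1, the sensor of Z-form nucleic acids and an interferon-induced gene, was higher with TNF in lymphocytes of both genotypes and level in monocyte-like cells. T-like cells held 144 CPM with TRIF-KO TNF (1585 UMIs) and 154 CPM with wild-type TNF (965 UMIs), against 58.7 CPM with TRIF-KO PBS (430 UMIs) and 52.0 CPM with wild-type PBS (190 UMIs). The TNF libraries did not overlap the PBS libraries in their counting intervals. The log2 ratio was 1.29 (1.14 to 1.45) in TRIF-KO and 1.56 (1.34 to 1.79) in wild-type, and the difference between them -0.27 (-0.54 to 0.00). It was found in each of the 3 T-like clusters: 1.45 in TRIF-KO and 1.47 in wild-type in cluster 2 (Cd4, Lef1, Tcf7), 1.20 and 1.67 in cluster 4 (Cd8a, Cd8b1), and 0.85 and 1.40 in cluster 15 (Foxp3, Ikzf2, Ctla4). All 6 of these ratios were positive, with the lowest in the TRIF-KO cells of cluster 15. The thinned share of T-like cells with a Zbp1 UMI was 12.5% with TRIF-KO TNF and 14.0% with wild-type TNF. With PBS it was 6.49% in TRIF-KO and 6.01% in wild-type. Erythroid-like cells showed at most 0.199%, which for the reason given for Cflar does not measure background in T-like cells.

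B-like cells held 50.7 CPM of Zbp1 with TRIF-KO TNF (763 UMIs) and 66.1 CPM with wild-type TNF (664 UMIs), against 25.8 CPM with TRIF-KO PBS (262 UMIs) and 26.4 CPM with wild-type PBS (170 UMIs). The log2 ratio of TNF to PBS was 0.97 (0.77 to 1.18) in TRIF-KO, just within 2-fold, and 1.33 (1.08 to 1.58) in wild-type, with its whole interval past 2-fold. The PBS libraries were equal within counting error (-0.03, -0.31 to 0.26), while with TNF the TRIF-KO library was lower by a log2 ratio of -0.38 (-0.53 to -0.23). The difference between the responses, -0.35 (-0.67 to -0.04), is to be read beside the medians over all genes, -0.02 in TRIF-KO and -0.17 in wild-type. B-like cells of TNF and PBS libraries also lay largely in different clusters, cluster 0 holding 216 and 27 cells with TNF in TRIF-KO and wild-type, against 1919 and 823 with PBS. In cluster 0 alone the wild-type ratio was not past 2-fold, on 27 cells with TNF. In cluster 7, which all libraries filled, the ratios were 0.49 in TRIF-KO and 1.49 in wild-type, and in cluster 9 they were 0.72 and 0.58.

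NK-like cells held 83.9 and 98.8 CPM of Zbp1 with TNF in TRIF-KO and wild-type, against 47.6 and 44.1 CPM with PBS, with log2 ratios of 0.82 (0.07 to 1.60) and 1.16 (0.31 to 2.06). A cluster that stayed unnamed and was led by Ccl5, Ctla2a, Il2rb and Nkg7 held 117 and 180 CPM with TNF, against 42.8 and 42.9 CPM with PBS. Another unnamed cluster, led by Fcrl5, Cr2 and Dtx1, held 61.3 and 81.0 CPM with TNF, against 23.6 and 24.8 CPM with PBS. In each of these 3 populations both TNF libraries were above both PBS libraries and wild-type TNF was the highest. The Zbp1 level in monocyte-like cells was 134 and 128 CPM with TNF in TRIF-KO and wild-type, against 142 and 144 CPM with PBS, so this class did not separate by treatment. Its log2 ratios were -0.09 (-0.40 to 0.23) in TRIF-KO and -0.17 (-0.58 to 0.23) in wild-type. With PBS, monocyte-like cells were the class with the highest Zbp1, above T-like cells in both genotypes.

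In 2 myeloid classes the genotypes went apart for Zbp1. Neutrophil-like cells had 189 UMIs (63.5 CPM) with TRIF-KO TNF and 21 UMIs (45.0 CPM) with wild-type TNF, against 2 UMIs (6.61 CPM) with TRIF-KO PBS and 31 UMIs (38.0 CPM) with wild-type PBS. The TRIF-KO ratio of 3.27 (1.39 to 6.32) therefore rests on 2 UMIs in the PBS library, as for Casp8, and the wild-type ratio was 0.24 (-0.63 to 1.09). Dendritic-like cells held 64.8 CPM with TRIF-KO TNF and 39.4 CPM with wild-type TNF, against 31.3 CPM with TRIF-KO PBS and 37.1 CPM with wild-type PBS. Only the TRIF-KO TNF library stood out, with a log2 ratio of 1.05 (0.41 to 1.73) in TRIF-KO and 0.08 (-0.63 to 0.80) in wild-type. The clusters of this class did not share that pattern: in cluster 17 the ratios were 1.76 in TRIF-KO and -0.60 in wild-type, and in cluster 18 they were -0.11 and 1.34.

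Ripk3, the kinase that commits a cell to necroptosis, was highest in macrophage-like and monocyte-like cells. Macrophage-like cells held 38.8 CPM with TRIF-KO TNF (19 UMIs) and 40.1 CPM with wild-type TNF (7 UMIs), against 47.9 CPM with TRIF-KO PBS (10 UMIs) and 81.8 CPM with wild-type PBS (8 UMIs). Monocyte-like cells held 40.6 and 31.6 CPM with TNF in TRIF-KO and wild-type, against 30.5 and 21.4 CPM with PBS. In monocyte-like cells the TNF library was the higher one in each genotype, but the log2 ratios of 0.41 (-0.23 to 1.08) and 0.56 (-0.39 to 1.48) included 0. B-like cells held 13.1 and 11.7 CPM with TNF, against 16.7 CPM with TRIF-KO PBS and 11.2 CPM with wild-type PBS. T-like cells held 10.3 and 8.59 CPM with TNF, against 13.9 CPM with TRIF-KO PBS and 8.76 CPM with wild-type PBS. In both lymphocyte classes the TRIF-KO PBS library was the high value, with log2 ratios of TRIF-KO to wild-type with PBS of 0.58 in B-like and 0.67 in T-like cells, both with intervals above 0. Neutrophil-like cells held 2.45 to 7.40 CPM, the lowest median of the white-cell classes. In the unnamed cluster led by Fcrl5, Cr2 and Dtx1, Ripk3 had 45 UMIs with TRIF-KO TNF and 41 with wild-type TNF, against 19 with TRIF-KO PBS and 14 with wild-type PBS. By CPM its log2 ratio of TNF to PBS was 0.31 (-0.49 to 1.16) in TRIF-KO and past 2-fold in wild-type, 1.11 (0.20 to 2.10).

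Mlkl, the executioner of necroptosis, was close to the detection limit. Over all kept cells it had 65 UMIs with TRIF-KO TNF and 22 with wild-type TNF, against 25 with TRIF-KO PBS and 16 with wild-type PBS, or 1.10, 0.735, 0.850 and 0.714 CPM. These values overlap in their counting intervals. Monocyte-like cells had 10 and 3 UMIs with TNF in TRIF-KO and wild-type (6.65 and 5.27 CPM), against 9 and 5 with PBS (8.59 and 4.12 CPM). Macrophage-like cells had 7 UMIs (14.3 CPM) with TRIF-KO TNF and 0 with wild-type TNF, which allows up to 17.2 CPM, against 3 UMIs (14.4 CPM) with TRIF-KO PBS and 1 (10.2 CPM) with wild-type PBS. B-like cells had 5 and 2 UMIs with TNF, against 2 and 0 with PBS, the 0 allowing up to 0.465 CPM. A difference in Mlkl between groups was not detectable at this depth in any class. Its median over libraries was highest in macrophage-like (12.2 CPM), monocyte-like (5.96 CPM) and NK-like (4.89 CPM) cells, each on few UMIs.

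**Figure D4:**
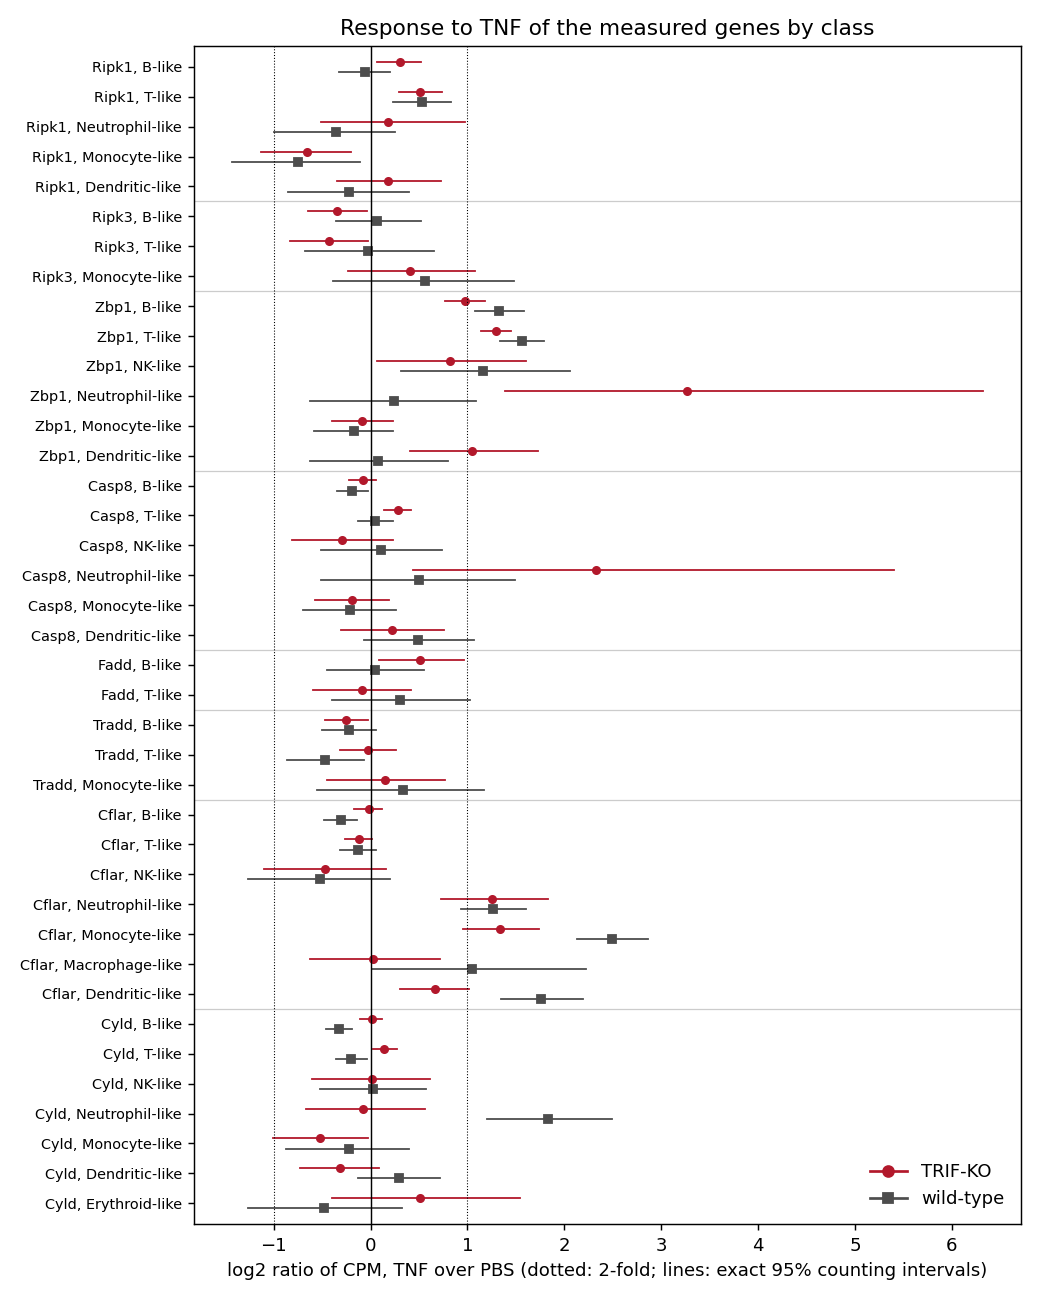
Points give the log2 ratio of CPM with TNF to CPM with PBS for the 39 measured pairs of gene and class, in TRIF-KO (circles) and wild-type (squares), with exact 95% counting intervals. The dotted lines mark 2-fold. Pairs to the right of the dotted line in both genotypes are Zbp1 in T-like cells and Cflar in neutrophil-like and monocyte-like cells.

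Between the genotypes the pairs past 2-fold were few. With TNF, 0 of the 39 measured pairs were at least 2-fold higher in TRIF-KO and 1 was lower, Cflar in monocyte-like cells, beside 2.74% higher and 2.18% lower over all genes. With PBS, 1 was higher, Cyld in neutrophil-like cells, and 3 were lower, Zbp1 and Casp8 in neutrophil-like cells and Cyld in erythroid-like cells, beside 1.51% and 4.51% over all genes. The first 2 of the 3 rest on 2 UMIs each in the TRIF-KO PBS library, with log2 ratios of -2.52 (-5.63 to -0.55) for Zbp1 and -1.96 (-5.10 to 0.07) for Casp8. In erythroid-like cells, where the median of all genes was -0.60, Cyld had 2.82 CPM with TRIF-KO PBS and 7.25 CPM with wild-type PBS. The response to TNF in TRIF-KO minus that in wild-type had an interval below 0 in 5 of 39 pairs and above 0 in 7, beside 9.14% below and 21.5% above over all genes, so neither count stood far from that of genes at large. Those below 0 were Cflar in monocyte-like and dendritic-like cells, Cyld in neutrophil-like and dendritic-like cells, and Zbp1 in B-like cells. Those above 0 were Zbp1 in neutrophil-like and dendritic-like cells, Cyld and Cflar in B-like cells, Ripk1 in B-like cells, and Casp8 and Cyld in T-like cells. The values in B-like and T-like cells were all between 0.23 and 0.36 in size, small beside the 2-fold limit.

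The wider pathway was read from 9 further gene lists, which like the members were chosen with earlier results known. Over all measured genes, 4.60% were at least 2-fold higher with TNF and 5.52% lower in TRIF-KO, and 5.07% and 10.7% in wild-type. The counts of every list below are to be read beside these shares. Over the 8 classes, the list of the TNF receptor complex and its kinases had 86 measured pairs, of which 14 were at least 2-fold higher with TNF and 1 lower in TRIF-KO, and 18 higher and 6 lower in wild-type. Birc3, the ubiquitin ligase cIAP2, stood in neutrophil-like cells at 308 CPM with TRIF-KO TNF and 718 CPM with wild-type TNF, against 132 CPM with TRIF-KO PBS and 207 CPM with wild-type PBS. Its TRIF-KO to wild-type log2 ratio with TNF was -1.22 (-1.40 to -1.04). Ikbke, a kinase related to TBK1, was at 191 and 195 CPM with TNF in monocyte-like cells of TRIF-KO and wild-type, against 13.4 and 11.5 CPM with PBS. In neutrophil-like cells Ikbke had 222 CPM with TRIF-KO TNF and 279 CPM with wild-type TNF, against 1 UMI with TRIF-KO PBS and 0 with wild-type PBS.

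The list of linear ubiquitin writers, readers and erasers had 45 measured pairs, with 10 higher and 0 lower in TRIF-KO and 10 higher and 2 lower in wild-type. Tnfaip3, encoding the ubiquitin-editing enzyme A20, had in monocyte-like cells 124 CPM with TRIF-KO TNF and 308 CPM with wild-type TNF, against 17.2 CPM with TRIF-KO PBS and 16.5 CPM with wild-type PBS. With TNF its TRIF-KO to wild-type log2 ratio was -1.31, with an interval below 0, next to the -1.27 of Cflar in the same cells. In neutrophil-like cells Tnfaip3 had 90.4 CPM with TRIF-KO TNF and 371 CPM with wild-type TNF, against 19.8 CPM with TRIF-KO PBS and 25.7 CPM with wild-type PBS. Tnip1, a partner of A20, had 260 and 332 CPM with TNF in monocyte-like cells, against 51.5 and 33.0 CPM with PBS. Tnfaip3, Tnip1 and Birc3 also stand in the list of NF-kB target genes given further on. Of the linear ubiquitin list and the TNF receptor list, 4 of 45 and 3 of 86 pairs were at least 2-fold lower in TRIF-KO than in wild-type with TNF, and none was higher. Over all genes, 2.18% were lower and 2.74% higher in this comparison.

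Death receptors and their ligands gave 16 measured pairs, with 4 higher and 2 lower in TRIF-KO and 6 higher and 1 lower in wild-type. Fas, the receptor that recruits FADD and caspase-8, was at 263 CPM with TRIF-KO TNF and 390 CPM with wild-type TNF in neutrophil-like cells, against 116 and 83.3 CPM with PBS in TRIF-KO and wild-type. In T-like cells Fas was at 36.8 CPM with TRIF-KO TNF and 69.2 CPM with wild-type TNF, against 25.7 and 28.7 CPM with PBS, so wild-type TNF stood apart. Tnf itself was at 85.7 CPM in neutrophil-like cells of both TNF libraries, against 6.61 CPM with TRIF-KO PBS and 14.7 CPM with wild-type PBS. Downstream caspases, their inhibitors and pore formers had 48 measured pairs, with 2 higher and 4 lower in TRIF-KO and 5 higher and 6 lower in wild-type. Their members went both ways in monocyte-like cells. Ninj1, which ruptures the membrane of dying cells, had 450 and 759 CPM with TNF in TRIF-KO and wild-type, against 75.4 and 51.1 CPM with PBS. Bid, which encodes a substrate of caspase-8, had 10.6 and 1.76 CPM with TNF in TRIF-KO and wild-type, against 35.3 and 42.9 CPM with PBS.

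The inputs from TRIF, double-stranded RNA and Z-form nucleic acids had 38 measured pairs, with 1 higher and 1 lower in TRIF-KO and 2 higher and 3 lower in wild-type. Tlr3, the receptor that signals through TRIF, was read in dendritic-like cells at 2.29 CPM with TRIF-KO TNF and 0 UMIs with wild-type TNF, against 29.0 CPM with TRIF-KO PBS and 95.9 CPM with wild-type PBS. The dendritic markers were lower along with it, as given above, and their part in this difference was not tested. MLKL partners and membrane repair genes had 57 measured pairs, of which 3 were higher and 0 lower in TRIF-KO and 0 higher and 2 lower in wild-type. NF-kB target genes moved most, with 50 of 97 measured pairs higher and 2 lower in TRIF-KO and 59 higher and 2 lower in wild-type, and their median log2 ratio in monocyte-like cells was 2.36 in TRIF-KO and 2.44 in wild-type, beside -0.01 and -0.23 over all genes. With TNF, 17 of the 97 were at least 2-fold lower in TRIF-KO than in wild-type and 2 were higher, beside 2.18% and 2.74% over all genes. Type I interferon-stimulated genes, a group to which Zbp1 is related, had 19 of 81 higher and 4 lower in TRIF-KO and 14 higher and 14 lower in wild-type. In T-like cells, where Zbp1 was higher with TNF, their median was 0.89 in TRIF-KO and 0.80 in wild-type, beside 0.05 and -0.17 over all genes, while in monocyte-like cells it was -0.20 and -0.76, beside -0.01 and -0.23. B-like cells had medians of 0.59 and 0.28, beside -0.02 and -0.17. In neutrophil-like cells the medians were -0.19 and -1.01, beside -0.34 and -0.30, where Zbp1 had ratios of 3.27 (on 2 UMIs with TRIF-KO PBS) and 0.24. NK-like cells had only 1 measured gene of this list. Whether Zbp1 moves with the list was not tested. Interferon-gamma-responsive genes had 21 of 72 higher and 1 lower in TRIF-KO and 23 higher and 3 lower in wild-type.

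The genes with the pattern most like each member were taken by Pearson's r of log2(CPM + 10) over the 32 points of 8 classes and 4 libraries, among 9246 genes, as a description. These points share libraries and depth, and erythroid-like cells are low for all members. Cflar was most like the actin genes Actg1 and Actb and the actin regulator Vasp (r of 0.93 each), and Ripk3 like Ctsc, which encodes a lysosomal protease (0.94). For Zbp1 the nearest were Aprt (0.86), Uqcrq (0.85) and Tmem167 (0.85), the lowest values of likeness among the 8 members searched. Mlkl, with 128 UMIs, was under the 200 UMIs required and was not searched. Casp8 was nearest to Letm1 (0.96), Cyld to Rbbp6 (0.94), Ripk1 to Ppp1r12c (0.95), Fadd to Dusp12 (0.91), and Tradd to Senp5, Mien1 and Csnk2a2 (0.91 each). Among the members themselves, the closest pairs by Pearson's r were Casp8 and Tradd (0.84), Ripk1 and Cflar (0.83), and Zbp1 and Casp8 (0.82). These rankings depended on the measure. By Spearman's rank correlation the same pairs stood at 0.61, 0.49 and 0.63, and Ripk3 and Tradd were the closest (0.72). By that measure Rbbp6 stayed nearest to Cyld and Dusp12 to Fadd, while the genes named for Ripk1, Ripk3, Casp8 and Tradd gave way to others. For Cflar only Vasp stayed among the nearest and the actin genes Actg1 and Actb did not. For Zbp1 only Uqcrq stayed.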

How the data were processed

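Droplet-based single-cell RNA sequencing covered the spleen cells of 4 libraries, which were assigned by their genotype and treatment labels. The deposited files hold raw UMI counts per gene and barcode, with no normalization. The submitters' processing notes name Cell Ranger 3.0, Seurat 4.1.1 and the build mm10, and the deposited matrix headers name Cell Ranger 6.0.1. The counting annotation and its use of strand are not given in the sources used here. In each library the smallest deposited barcode held 500 UMIs or slightly more.

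A barcode was kept when it had 200 or more genes and no more than 10% of its UMIs were mitochondrial. The highest Scrublet scores (scanpy 1.11.5) were then removed as doublets at 0.8% per 1000 barcodes (455 with TRIF-KO TNF, 288 with wild-type TNF, 295 with TRIF-KO PBS and 54 with wild-type PBS). All libraries were clustered together, leaving the members and pathway lists out of the 2000 variable genes, on 30 principal components and 15 neighbours (scikit-learn 1.9.0, leidenalg 0.10.2, resolution 1). Of 25 clusters, 23 were named "-like" from 15 marker lists (mean log2 enrichment of at least 0.5, at least 3 markers detected).

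UMIs were summed per class and library and given as CPM of the class total. Intervals are exact Poisson for CPM, exact Clopper-Pearson for shares and exact conditional for ratios (scipy 1.17.1), and ignore that UMIs can lie together in 1 cell. For the difference between responses, 0.5 was added to every count and the interval came from a normal approximation, so it can depart slightly from the 2 ratios. A count of 0 allows up to 3 counts. Thinned shares leave out cells under 1000 UMIs. The ratio code was tested on simulated counts. With 1 library per group and cells that are not independent, no p-value is given.

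From the pathway lists, at most 3 genes per list, class and comparison could be named, those past 2-fold whose interval bound lay farthest from no change. The genes and lists were chosen with earlier results of these data known, and the 9-letter motif spellings after longer ones had been searched. A gene of the pathway lists is not reported here.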

Additional observations from a re-analysis of the deposited data

Results flagged for a closer look

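Cyld in T-like cells had log2 ratios of TNF to PBS of opposite sign in the 2 genotypes, 0.14 (0.02 to 0.27) in TRIF-KO and -0.20 (-0.36 to -0.04) in wild-type, which differ by 0.34 (0.14 to 0.54). With 1 library per group this difference was not tested, and both responses are well within 2-fold. The medians over all genes of the class were 0.05 in TRIF-KO and -0.17 in wild-type.

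The 3337 barcodes over the mitochondrial limit, which no comparison used, held UMIs of every gene: 757 of Cyld, 590 of Cflar, 373 of Casp8, 219 each of Zbp1 and Ripk1, 87 of Tradd, 53 of Ripk3, 25 of Fadd and 8 of Mlkl. Of their 4992954 UMIs, 24.4% were mitochondrial. Relative to the other UMIs the level of Cyld there was 200 CPM, of Cflar 156 CPM, of Casp8 98.8 CPM and of Mlkl 2.12 CPM.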

How the results depend on the processing

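No paired analysis was possible because each group is 1 library. With at most 5% mitochondrial UMIs, 132 of the 156 ratios had a value, among them 16 of the 19 past 2-fold. All 16 stayed past it. Zbp1 in TRIF-KO and Cflar in wild-type, both TNF to PBS in dendritic-like cells, had no value there or with a per-cell marker gate. Of the 19 values past 2-fold, the exceptions that came within it were the wild-type ratio of TNF to PBS for Zbp1 in NK-like cells (0.83 with a per-cell marker gate), Cflar in macrophage-like cells of wild-type (0.87 without doublet removal, 0.77 at Leiden resolution 2), Casp8 in neutrophil-like cells of TRIF-KO against wild-type with PBS (-0.85 without doublet removal), and Cyld in erythroid-like cells in the same comparison (-0.62 without doublet removal, -0.78 with median-of-ratios scaling, -0.83 without mitochondrial, ribosomal, haemoglobin and immunoglobulin genes). Cflar in monocyte-like cells ranged over 1.19 to 1.64 in TRIF-KO and 2.41 to 2.72 in wild-type, and Zbp1 in T-like cells over 1.24 to 1.34 and 1.40 to 1.73. No value past 2-fold changed sign under these settings. Single clusters, and the exclusions of C1q, neutrophil-marker and haemoglobin cells, were added after seeing the data. Among them Zbp1 in dendritic-like cells of TRIF-KO went to -0.11 in cluster 18, against 1.05 in the whole class. The wild-type ratio of TNF to PBS for Zbp1 in B-like cells was not past 2-fold in cluster 0 or in cluster 9. The TRIF-KO ratio for Zbp1 in T-like cells was not past it in cluster 15.

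Counts of pairs past the limit moved as follows. Without doublet removal, 1 was lower with TNF in wild-type and 2 were higher in TRIF-KO than in wild-type with PBS. The marker gate gave only 96 of the 156 ratios, among them 13 of the 19 past 2-fold, of which 12 stayed past it. It had 5 higher with TNF in wild-type and 0 lower in TRIF-KO than in wild-type with TNF, where Cflar in monocyte-like cells had no value under the gate. With cells weighted equally, 3 were lower in TRIF-KO with TNF and 2 higher with PBS. At 40 UMIs in place of 100, 2 were lower with TNF in TRIF-KO and 3 in wild-type, and 2 were lower in TRIF-KO than in wild-type with TNF and 5 with PBS, and at 200 UMIs 1 with PBS. At 1.5-fold, 1 was lower with TNF in each genotype, and in TRIF-KO against wild-type 1 was higher and 5 lower with TNF and 3 higher and 6 lower with PBS. At 3-fold, 2 were higher with TNF in TRIF-KO and 3 in wild-type, 0 lower in TRIF-KO with TNF and 0 higher with PBS. Fewer or more pairs pass such limits by construction, and for the other settings the cause was not tested. Depth limits Mlkl and Fadd most, and in neutrophil-like cells the TRIF-KO PBS library.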

Other observations

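Plasma-like cells, of which the wild-type PBS library held 48, had 40 UMIs of Zbp1 with TRIF-KO TNF and 67 with wild-type TNF, against 25 with TRIF-KO PBS and 22 with wild-type PBS. These were 98.0 CPM (70.0 to 133) and 151 CPM (117 to 192) with TNF, against 69.6 CPM (45.0 to 103) and 54.8 CPM (34.3 to 82.9) with PBS. Both TNF libraries were above both PBS libraries, but in TRIF-KO the intervals overlapped. Progenitor-like cells held 18 UMIs of Mlkl with TRIF-KO TNF and 7 with wild-type TNF (5.39 and 7.86 CPM), against 5 with TRIF-KO PBS and 3 with wild-type PBS (5.71 and 1.81 CPM). The kinase gene Ripk3 in the same cells stood at 23.3 CPM with TRIF-KO TNF and 20.2 CPM with wild-type TNF, against 20.6 CPM with TRIF-KO PBS and 10.9 CPM with wild-type PBS. These classes had under 50 cells in the wild-type PBS library and entered no comparison.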
